A study of Mus musculus with 2 samples.

Results

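The nuclear sites in introns and between genes are those PAR-CLIP sites of LRPPRC-FLAG that lay on the placed nuclear chromosomes, in no exon and in no small RNA or rRNA gene of their own strand. They were found by overlap with the GENCODE vM21 annotation of the mouse genome (mm10), without the annotated ribosomal locus of chromosome 17 and without the gene models Gm10800, Gm21738 and Gm26870. They numbered 314 of the 552 sites in the list (56.9%, 95% Wilson interval 52.7 to 61.0). The rule left out 50 sites, of which 20 would otherwise have been counted. Both samples of the series, 1 experimental and 1 control, were mouse embryonic fibroblasts (MEFs) from Lrpprc-FLAG transgenic mice. MEFs are connective tissue cells grown from embryos. The labels of both give induction of the FLAG-tagged protein with doxycycline at 2 µg/ml for 72 h, and lysis in 1% digitonin. The study's methods describe a doxycycline-inducible system for its HeLa cells only, so whether the MEFs were induced in this way is unclear. The labels do not say what set the control apart, and its sites were not analysed here. The tagged protein was recovered with beads carrying an antibody against FLAG, and it came from a transgene. The list holds no expression values, so the fibroblast label could not be checked against marker genes.

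In PAR-CLIP, cells build 4-thiouridine (4TU) into new RNA, and ultraviolet light joins a 4TU to a protein that touches it. A joined 4TU is read as C instead of T, so a site can only be found where the RNA holds U. LRPPRC is a pentatricopeptide repeat protein of the mitochondrial matrix, where with its partner SLIRP it keeps mitochondrial mRNAs stable and polyadenylated. Introns are transcribed in the nucleus and removed by splicing. They hold much of the repeated sequence of transcribed DNA, including runs of short units. A read from a sequence with many copies can align to several places, and the authors kept 1 place for each read, so a site in repeated sequence names one of several possible sources.

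The list came from 1 library and gave no coverage for any site. No spread between replicates, no test between groups and no depth behind a site could therefore be given. Intervals are at 95%, cover counting error only and treat sites as independent. Sites were divided into 3 classes. Introns of the same strand held 134 sites (42.7%, 37.3 to 48.2), the opposite strand of a gene held 51 (16.2%, 12.6 to 20.7), and sequence outside genes held 129 (41.1%, 35.8 to 46.6). Counted on each strand, the nuclear chromosomes held 1141326300 bases in introns, 1166550876 opposite a gene and 2856886202 outside genes. Sequence outside genes was thus the largest of the 3 classes, and the counts of sites were not corrected for these sizes. The sites were spread over 20 of the 21 nuclear chromosomes, with most on chromosome 2 (28 sites), fewest on chromosome 19 (7 sites) and none on Y, and 149 lay on the plus and 165 on the minus strand.

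The sites were grouped by sequence, with groups chosen after their values were seen. Those named rRNA-like matched, over at least 50% of their length, either the annotated ribosomal locus or a stretch of chromosome 9 of which one part matches 18S rRNA. The rest of that stretch was not identified, and 75 of the 89 rRNA-like sites matched that part alone. A further group shared sequence with rRNA-like sites without such a match, and is called linked to them. Satellite-like sites matched the left-out satellite gene models. AC-rich sites held at least 75% A and C, and CU-rich sites at least 75% C and U. The rest were divided by whether at least 50% of their bases were soft-masked, that is, in the lower-case letters that mark repeats in the reference. The rRNA-like sites numbered 89 (28.3%, 23.6 to 33.6), the linked sites 20, the satellite-like sites 6, the AC-rich sites 42 (13.4%, 10.1 to 17.6) and the CU-rich sites 29 (9.24%, 6.51 to 12.9). There remained 44 other sites that were mostly soft-masked and 84 that were not (26.8%, 22.2 to 31.9).

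**Figure D1:**
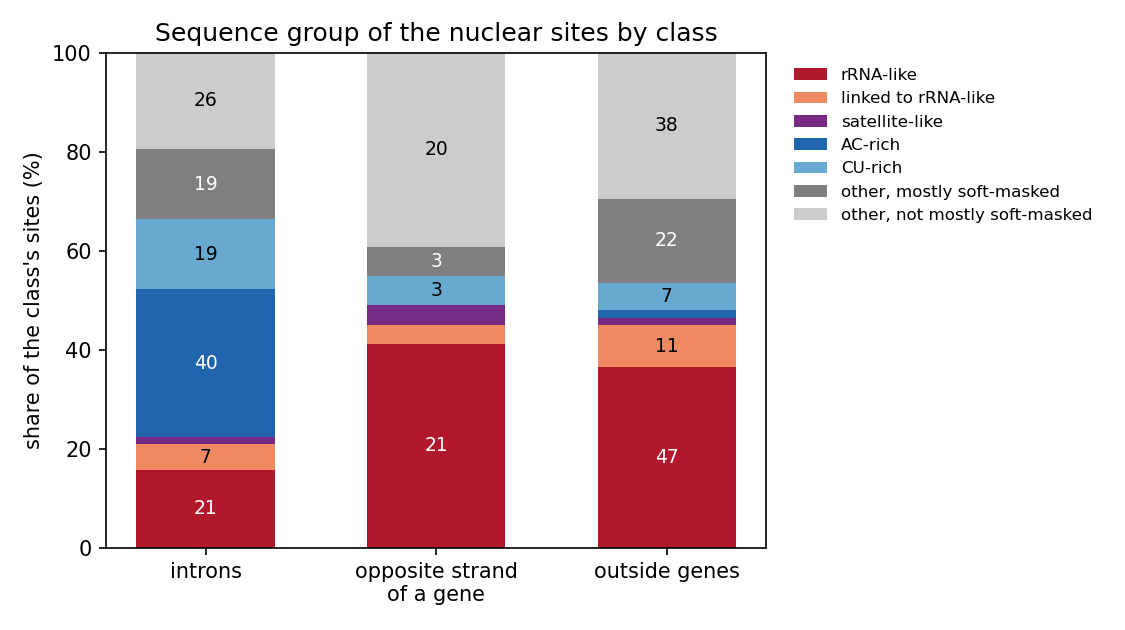
Share of each class of site (introns, 134 sites; opposite strand of a gene, 51; outside genes, 129) taken by each sequence group, in percent, with the number of sites written in the larger segments. AC-rich sites filled 40 of the intron sites and none of those opposite a gene, whereas rRNA-like sites were the most numerous group of the other classes, with 21 and 47 sites.

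AC-rich sites are shown first because they made up the largest sequence group in introns. Sequences of mm10 are written 5′ to 3′ on the strand of the site, with each U in capitals, since U is where 4TU can sit. The first lies in Rai14, which encodes an actin-associated protein, the next in Pard3, a cell polarity gene, and the last pair lies 25 nt apart in 1 intron of Galnt18, which encodes a glycosyltransferase. All 4 held mostly alternating A and C with scattered U residues.
Rai14, chr15:10588729-10588860, minus strand: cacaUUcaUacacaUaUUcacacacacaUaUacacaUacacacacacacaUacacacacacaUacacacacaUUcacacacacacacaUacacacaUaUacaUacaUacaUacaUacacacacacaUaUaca
Pard3, chr8:127234452-127234576, plus strand: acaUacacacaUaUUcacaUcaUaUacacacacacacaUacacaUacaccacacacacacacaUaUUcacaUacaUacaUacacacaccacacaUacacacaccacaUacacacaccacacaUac
Galnt18, 64 nt site, chr7:111593457-111593520, minus strand: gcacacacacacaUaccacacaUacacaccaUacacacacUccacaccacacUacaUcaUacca
Galnt18, 53 nt site, chr7:111593546-111593598, minus strand: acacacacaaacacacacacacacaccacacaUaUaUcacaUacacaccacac

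CU-rich sites are shown next, with the widest one, in Fbxl7, which encodes an F-box protein, a site of uninterrupted C and U in Lhfp, and the site with the highest U share of all 314, in the non-coding gene Gm33524. The Fbxl7 sequence is an irregular mix of C and U, and no 25-nt word of it occurred more than 1 time on the placed chromosomes. The Gm33524 sequence consists of short units of U and C, and its commonest word occurred 272834 times.
Fbxl7, chr15:26778134-26778253, minus strand: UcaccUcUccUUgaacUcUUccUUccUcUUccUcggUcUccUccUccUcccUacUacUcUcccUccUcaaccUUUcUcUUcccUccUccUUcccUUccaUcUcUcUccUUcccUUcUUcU
Lhfp, chr3:53119146-53119237, plus strand: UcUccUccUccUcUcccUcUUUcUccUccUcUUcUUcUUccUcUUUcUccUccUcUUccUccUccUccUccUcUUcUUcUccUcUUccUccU
Gm33524, chr14:70051373-70051447, minus strand: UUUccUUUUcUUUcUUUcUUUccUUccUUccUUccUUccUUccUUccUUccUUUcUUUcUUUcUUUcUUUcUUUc

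For the rRNA-like sites, 5 sequences from 5 chromosomes are shown, in 2 sets that match different parts of one stretch of chromosome 9. Across the sets no identical run was longer than 6 nt. Within the first set, the sites near Gm15569 and Gm44212 shared an identical run of 98 nt, and the site near Gm31452 shared 61 nt with the latter. In the other set, the site in an intron of Peak1, which encodes a pseudokinase, was identical over its whole 76 nt to part of a site opposite Zc3h7a, which encodes a zinc finger protein.
near Gm31452, chr13:107121903-107122003, plus strand: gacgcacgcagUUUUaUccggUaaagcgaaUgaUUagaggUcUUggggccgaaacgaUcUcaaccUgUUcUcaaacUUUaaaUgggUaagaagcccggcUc
near Gm15569, chr15:86195107-86195216, plus strand: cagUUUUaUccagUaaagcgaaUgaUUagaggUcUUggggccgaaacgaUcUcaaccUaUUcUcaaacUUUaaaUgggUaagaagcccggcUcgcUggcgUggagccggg
near Gm44212, chr6:44793104-44793230, plus strand: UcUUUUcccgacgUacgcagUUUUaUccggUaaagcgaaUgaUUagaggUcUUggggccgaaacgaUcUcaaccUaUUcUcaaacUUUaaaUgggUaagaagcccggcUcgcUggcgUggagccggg
opposite Zc3h7a, chr16:11143907-11143987, plus strand: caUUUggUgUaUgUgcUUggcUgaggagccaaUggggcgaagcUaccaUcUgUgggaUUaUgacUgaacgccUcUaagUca
Peak1, chr9:56223884-56223959, minus strand: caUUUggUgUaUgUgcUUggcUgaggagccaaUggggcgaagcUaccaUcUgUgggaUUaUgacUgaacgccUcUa

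The last sequences show sites facing each other and sites of single-copy sequence. The satellite-like pair at Gm33838, a non-coding gene, overlapped by 92 nt on opposite strands, so that the shorter sequence is the complement of part of the longer. The intron sites in Mfhas1 and Bhlhb9 had the most U residues, 38 and 33, of the 21 intron sites outside every repeat group whose words occurred at 1 place only.
opposite Gm33838, chr9:35305344-35305592, plus strand: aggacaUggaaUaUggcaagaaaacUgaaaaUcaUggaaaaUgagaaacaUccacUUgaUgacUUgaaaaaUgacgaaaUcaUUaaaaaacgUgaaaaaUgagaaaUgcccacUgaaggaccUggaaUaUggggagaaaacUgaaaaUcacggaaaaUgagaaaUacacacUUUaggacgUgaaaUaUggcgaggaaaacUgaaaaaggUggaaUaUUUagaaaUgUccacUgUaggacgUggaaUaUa
Gm33838, chr9:35305371-35305462, minus strand: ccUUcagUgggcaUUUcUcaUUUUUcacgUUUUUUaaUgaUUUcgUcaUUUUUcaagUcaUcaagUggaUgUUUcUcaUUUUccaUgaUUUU
Mfhas1, chr8:35660571-35660645, plus strand: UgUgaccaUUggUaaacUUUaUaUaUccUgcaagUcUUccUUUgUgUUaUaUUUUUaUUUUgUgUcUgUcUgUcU
Bhlhb9, chrX:135822634-135822708, plus strand: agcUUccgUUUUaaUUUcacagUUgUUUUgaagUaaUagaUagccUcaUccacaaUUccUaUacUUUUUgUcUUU

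Widths were compared first. Their median width was 75 nt (75 to 75), the narrowest site having 15 nt and the widest 442 nt. A width of exactly 75 nt was found in 113 of them (36%, 30.9 to 41.4), whereas the next commonest width, 64 nt, was found in 8. It was the same in introns (75 to 76), opposite a gene (75 to 88) and outside genes (75 to 77). Sites in exons of the same list had the same median (75 to 95), but those in small RNA genes had a median of 86.5 nt (81 to 95) and the mitochondrial sites one of 147.5 nt (117 to 194). Only 2 of the 94 small RNA gene sites and 2 of the 48 mitochondrial sites were 75 nt wide, against 11 of the 34 exon sites. How the preferred width arose was not tested.

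The preferred width was uneven among the sequence groups. Of the 84 sites that were neither in a repeat group nor mostly soft-masked, 58 were exactly 75 nt wide (69.0%, 58.5 to 77.9), as were 30 of the 44 other soft-masked sites (68.2%, 53.4 to 80) and 13 of the 29 CU-rich sites. In contrast, this width was found in 5 of the 42 AC-rich sites (11.9%, 5.19 to 25), in 6 of the 89 rRNA-like sites (6.74%, 3.13 to 13.9) and in none of the 6 satellite-like sites, a number so small that it allows a share of up to 50%. The rRNA-like sites were the widest large group, with a median of 102 nt (86 to 118), and they held 11 of the 12 sites over 200 nt.

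**Figure D2:**
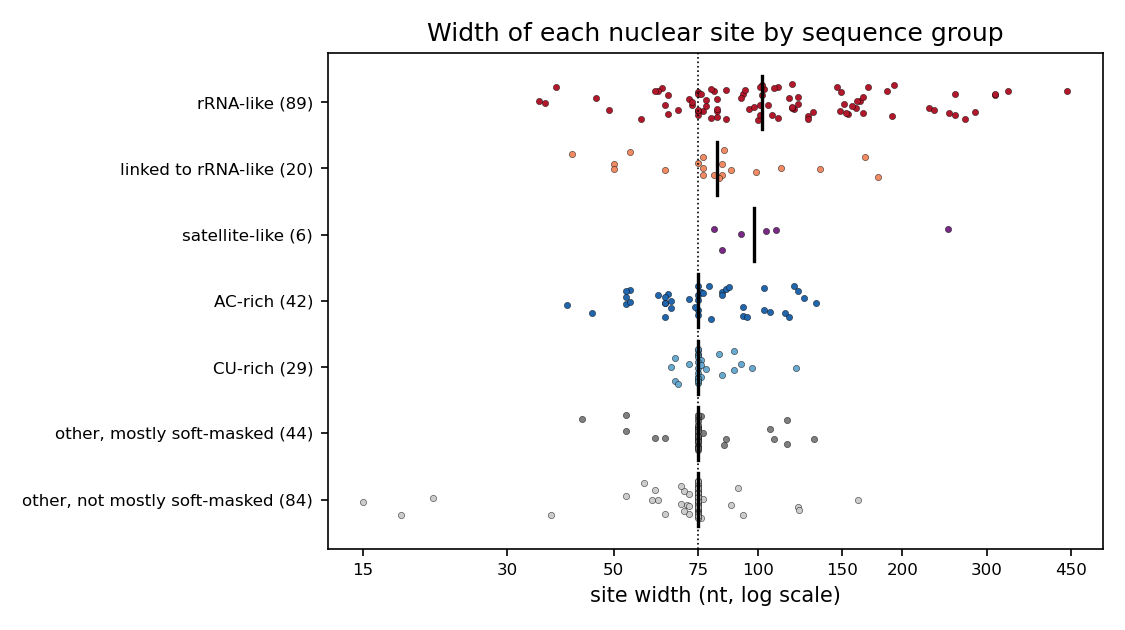
Width in nt, on a log scale, of each of the 314 sites, 1 point per site, by sequence group, with the number of sites in brackets, a black bar at each group's median and a dotted line at 75 nt. The sites outside the repeat groups lined up at 75 nt, while the rRNA-like sites spread from 35 to 442 nt around a median of 102 nt.

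The widest sites of each class were mostly rRNA-like. In introns these were sites of 233 nt in Cmss1, 227 nt in Gphn, which encodes the synaptic scaffold protein gephyrin, 186 nt in Tmem56 and 170 nt in 9330185C12Rik, whereas the 162-nt site in Cdk8, a kinase gene of the Mediator complex, belonged to no repeat group. Opposite a gene they were sites of 313 nt at Jarid2, which encodes a Polycomb cofactor, 258 nt at Arhgap21, 249 nt at Gm33838, 192 nt at Vwa3a and 178 nt at Lars2, which encodes the mitochondrial leucyl-tRNA synthetase. The Gm33838 site was satellite-like and the Lars2 site was linked to the rRNA-like sites. Outside genes, all 5 were rRNA-like, namely sites of 442 and 270 nt near Gm2651, 332 nt near Gm45677, 312 nt near Gm37350 and 284 nt near AC115119.1.

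To examine repeats, the soft-masked bases of each site were counted. At least 50% of the bases were soft-masked in 115 sites (36.6%, 31.5 to 42.1). The interval of the intron sites lay above those of both other classes, which overlapped each other. The share was 77 of 134 in introns (57.5%, 49.0 to 65.5), 31 of 129 outside genes (24.0%, 17.5 to 32.1) and 7 of 51 opposite a gene (13.7%, 6.81 to 25.7). Over all 75-nt windows of the genome the corresponding shares were 26.2%, 40.4% and 24.8%. The interval for intron sites lay above the share of intron windows, and that for sites outside genes lay below the share of windows outside genes. The AC-rich group contributed 41 and the CU-rich group 24 of the 115 sites, while none of the 89 rRNA-like sites was mostly soft-masked, which allows a share of up to 3.37%. For comparison, 12 of 34 exon sites, 7 of 94 small RNA gene sites and none of the 48 mitochondrial sites were mostly soft-masked.

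Soft masking does not count copies, so every 25-nt word of a site was counted in the genome on both strands. The count covered the placed chromosomes and the mitochondrial genome, so copies on unplaced sequence were not seen. In 144 sites (45.9%, 40.4 to 51.4) at least 50% of the words occurred more than 1 time, and the intervals of the classes overlapped, with 43.3% in introns (35.2 to 51.7), 52.9% opposite a gene (39.5 to 65.9) and 45.7% outside genes (37.4 to 54.3). Multi-copy sequence made up 65 of 89 rRNA-like sites (73.0%, 63 to 81.2), though no word of these occurred more than 18 times, 14 of 20 linked sites and 5 of 6 satellite-like sites. It was found in 21 of 42 AC-rich and 14 of 29 CU-rich sites, where the commonest words occurred 28131 and 1171388 times. Small RNA gene sites had 65 of 94 such sites and exon sites 10 of 34. In the group that was neither repeat-like nor soft-masked, 6 of 84 sites were multi-copy (7.14%, 3.31 to 14.7) and 64 had every word at 1 place only.

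In all, 86 of the 314 sites had every word at 1 place only, the others being 9 soft-masked, 7 CU-rich, 4 AC-rich and 2 rRNA-like sites. Of the 64, 21 lay in introns, 17 opposite a gene and 26 outside genes. The narrowest of the 64 had 58 nt, the widest 121 nt, and 49 of them exactly 75 nt. Their U share ranged from 17.3 to 50.7% with a median of 30%. The intron sites among them lay in genes such as Stim1, which encodes a calcium sensor of the endoplasmic reticulum, and Atp2b1, a calcium pump of the plasma membrane, with 1 site each of 75 nt and U shares of 36 and 26.7%.

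Similarity among the sites themselves was also measured, with blastn matches of at least 40 nt and 85% identity. Such matches joined 154 of the 314 sites into 16 families. Of these, 8 had 5 or more sites, with 36, 32, 27, 19, 6, 5, 5 and 5 sites. The family of 32 consisted of 30 AC-rich and 2 other soft-masked sites on 15 chromosomes, and 30 of its sites lay in introns. The families of 36, 27 and 19 were made of rRNA-like and linked sites on 12, 14 and 10 chromosomes. The family of 6 was satellite-like, 1 family of 5 was rRNA-like and the other two were CU-rich.

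The U content was then compared, since 4TU replaces U. The median U share was 25.5% (24.0 to 26.7) over all 314 sites, 25.1% in introns (21.9 to 27.5), 27.9% opposite a gene (25.3 to 29.3) and 25.2% outside genes (23.6 to 27.1). These were close to the flanking sequence of equal width, with medians of 26.3% upstream and 26.1% downstream. The difference between a site and its flanks had a median of 0 percentage points (-0.82 to 1.33), with 153 sites above and 149 below. It was 8.7 points in CU-rich sites (6 to 14) and -2.44 points in AC-rich sites (-4.74 to -0.93), both chosen by their bases. In every other sequence group the interval included 0. The median was higher in the mitochondrial sites (29.7%, 27.8 to 32), in small RNA gene sites (27.7%, 25.7 to 29.4) and in exon sites (27.6%, 20.0 to 29.8), although only the mitochondrial interval lay wholly above that of the 314 sites. The lowest number of U residues in any of the 314 sites was 3.

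Individual sites ranged from 7.55 to 64% U. The highest shares were 64% in Gm33524, 61.9% near Gm11875, 58.7% near Gm44100, and 53.3% in 4 sites, in Agbl4, which encodes a carboxypeptidase of tubulin, in Fbln2, which encodes a fibulin of the extracellular matrix, near Gm44608 and near D7Ertd443e. All but 1 of these sites were 75 nt wide, the one near Gm11875 being 84 nt. The groups differed in this range. The median was 16.2% in AC-rich sites (15.5 to 18.3), 23.7% in rRNA-like sites (22.2 to 24.6), 29% in the sites that were neither repeat-like nor soft-masked (26.7 to 31.2) and 43.1% in CU-rich sites (39.8 to 48.0). The AC-rich and CU-rich groups were chosen by their bases, so their U shares describe them and are no separate finding.

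Intron sites were also set beside the whole intron that held them. The host introns had a median U share of 29.5% (29.1 to 30.1), and the median difference of site minus intron was -4.29 percentage points (-5.84 to -2.23), with 83 sites below and 51 above. All 40 AC-rich intron sites were below their intron (median difference -11.8 points) and all 19 CU-rich sites above it (12.2 points). The 26 intron sites that were neither repeat-like nor soft-masked differed by 0.69 points (-4.19 to 5.74), with 16 above and 10 below. The intron sites were also poor in G, with a median of 9.01% (1.39 to 14.7), and rich in C, with 34.3% (29.3 to 36.1). Over all intron bases of the genome the shares were 21.5% G and 20.9% C. The AC-rich and CU-rich groups, 59 of the 134 sites, were chosen by such bases, and the other 75 intron sites had medians of 20.8% G and 24% C.

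The bases of the intron sites were examined for sequence of only a pair of bases. At least 75% A and C was found in 40 of 134 intron sites (29.9%, 22.8 to 38.1), but at least 75% G and U, the complement of such a tract, in 1 (0.746%, 0.132 to 4.11). Likewise, C and U made up at least 75% of 20 sites (14.9%, 9.87 to 21.9), of which 1 was also AC-rich, and A and G of none, which allows a share of up to 2.24%. Over all 75-nt windows of introns with at least 3 U, the shares were 0.542% for A and C, 0.846% for G and U, 1.23% for C and U and 0.631% for A and G. The intervals for A and C and for C and U lay above their share of intron sequence, while those for G and U and for A and G included theirs. The groups were chosen after these shares were seen, so they are given as a description. Over all classes the AC-rich group numbered 42 sites at the limit of 75%, 47 at 70% and 31 at 80%. The last 2 limits were also chosen after the data were seen.

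**Figure D3:**
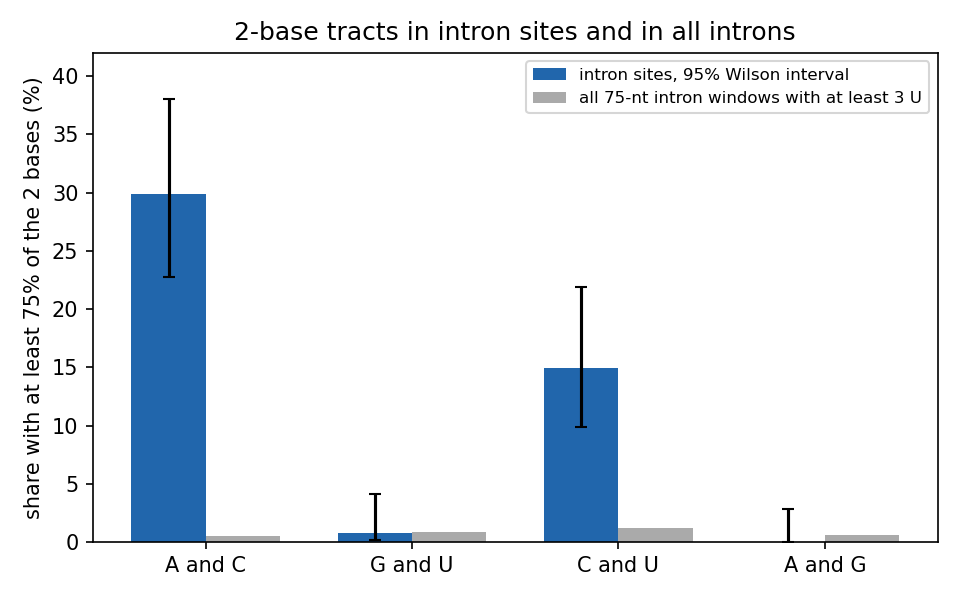
Share, in percent, of the 134 intron sites (blue, with 95% Wilson intervals) and of all 75-nt intron windows with at least 3 U (grey, complete counts) in which the named pair of bases makes up at least 75% of the sequence. Sites of A and C reached 29.9% and of C and U 14.9%, whereas their complements, G and U and A and G, stood at 0.746% and 0.

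The complement was present in the same introns. In the 35 introns that held an AC-rich site, 1.45% of 75-nt windows were AC-rich and 0.975% GU-rich, and GU-rich windows were present in 27 of them. These introns were chosen for holding such a site, and windows over the site were counted, so the choice itself raises the AC-rich share. Unlike the windows of all introns above, these were not required to hold any U. Outside genes, where there is no gene strand, 2 of 129 sites were AC-rich and 2 GU-rich, and opposite a gene there were none of either. Among the other sites of the list, 5 of 34 exon sites were AC-rich and 5 CU-rich, and none of the 94 small RNA gene sites or 48 mitochondrial sites was.

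The neighbours of each U were counted in the AC-rich and CU-rich sites. Both groups were chosen by their bases, which largely sets these neighbours, so the counts describe the groups and are no separate finding. For the AC-rich sites the counts are given first. Of their 544 U that were not the first or last base of a site, 308 (56.6%) had A on both sides and 91 (16.7%) had C on both sides. A further 92 (16.9%) lay next to another U. In the CU-rich sites, 338 of 963 such U (35.1%) had C on both sides, 203 had C before and U after, and 201 had U before and C after, while 92 had U on both sides. Compared with the AC-rich sites, CU-rich sites were rarely close together. Another site of the same strand lay within 200 nt of 12 of the 42 AC-rich sites (28.6%, 17.2 to 43.6) but of none of the 29 CU-rich sites, which allows a share of up to 10.3%.

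**Figure D4:**
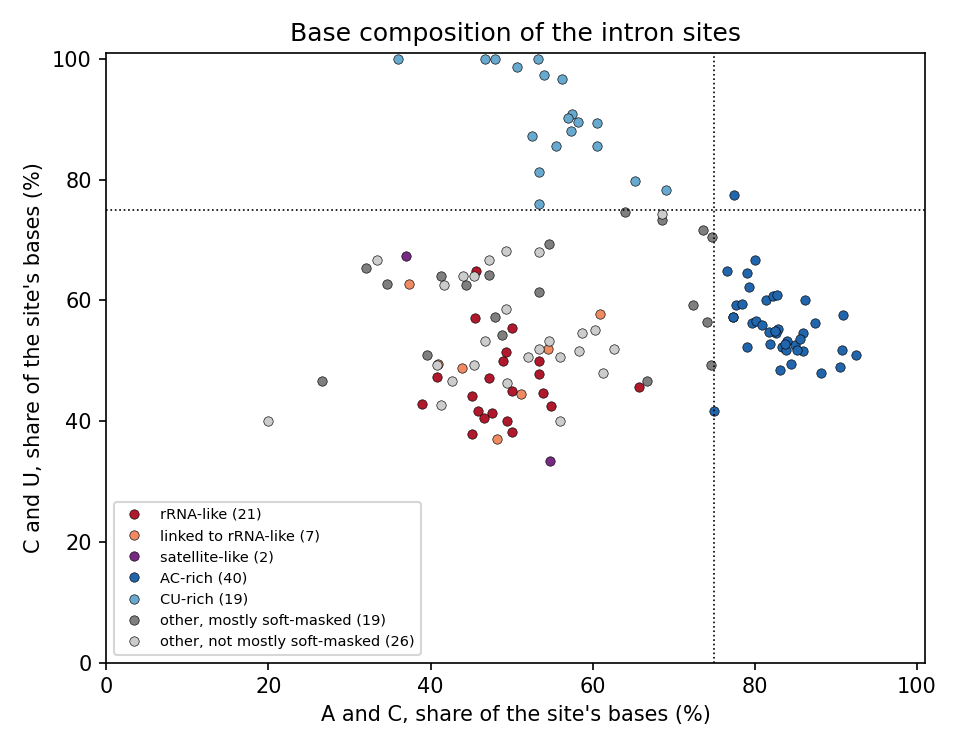
Base composition of the 134 intron sites, 1 point per site, with the share of A and C (%) on the horizontal axis and of C and U (%) on the vertical axis, coloured by sequence group, and dotted lines at 75%. The 40 AC-rich sites form a cloud to the right and the 19 CU-rich sites lie at the top. The rRNA-like sites lie to the left of the AC-rich sites and below the CU-rich sites.

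To place the intron sites, their distance to exons was measured. Only 2 of 134 lay within 100 nt of an exon edge of their strand (1.49%, 0.410 to 5.28), where 3.93% of all intron bases lay. At 500 nt there were 16 sites (11.9%, 7.48 to 18.5) against 15.7% of intron bases. The 2 near sites were a CU-rich site 6 nt from an exon of Ubap2l (chr3:90002206-90002272, minus strand) and a 75-nt site 93 nt from an exon of Ift88os (chr14:57510528-57510602, minus strand). The median distance was 4414 nt (2651 to 6528), in introns with a median length of 21923.5 nt (15401 to 32929). Along the intron the median position was 43.9% from the 5′ end (37.7 to 54.0).

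The 134 intron sites fell in 113 genes, of which 99 were protein-coding with 118 sites, 9 lincRNA genes with 11 sites and 5 antisense genes with 5. At least 2 sites were found in 19 genes, which held 40 sites. In 7 of these all sites were AC-rich, namely Carmn, a long non-coding RNA gene, Col4a2, which encodes a basement membrane collagen, Galnt18, Msrb3, a methionine sulfoxide reductase gene, Pard3, Ptprn, which encodes a protein of secretory granules, and Rbms3, which encodes an RNA-binding protein. The sites lay 18 to 111 nt apart in 5 of them, but 2750 nt apart in Ptprn and 144188 nt apart in Rbms3. Atxn1, the ataxin gene, held 2 AC-rich sites and 1 CU-rich site, and Fbln2 held 2 CU-rich sites 5771 nt apart.

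A different set of genes held rRNA-like and linked sites. Camk1d, a kinase gene, had 3 of them within chr2:5379040-5379321, and Cmss1, Gm19951, Gphn, Il31ra, which encodes a cytokine receptor subunit, and Kcnip1, which encodes a potassium channel partner, had 2 each, with gaps of 2 to 274 nt. The remaining genes with 2 sites were Gm10801, with a satellite-like and a soft-masked site, Gm20388 and Klc1, a kinesin light chain gene, each with an AC-rich and a soft-masked site, and Lpp, which encodes a focal adhesion protein, with an AC-rich site and one outside the repeat groups. Lists of 8 genes of LRPPRC and other pentatricopeptide repeat proteins or their partners (7 found in the annotation under these names), 10 fibroblast marker genes and 8 genes of nuclear long non-coding RNAs held no site in an intron or on the opposite strand. As 113 of 55341 annotated gene names (0.204%) held an intron site, nothing can be read from lists this short.

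The rRNA-like sites were placed on the sequences they matched. The ribosomal DNA unit encodes the 18S, 5.8S and 28S rRNAs, in that order, and its copies are largely missing from assembled genomes. Of the 89 sites, 14 matched the annotated locus on chromosome 17, with 92.5 to 100% identity (median 97%). A larger number, 83, matched a stretch of chromosome 9 that is not annotated as rRNA in the annotation used, and 8 matched both. The 81 of them that lay elsewhere in the genome had 70.1 to 97.2% identity to it (median 82.4%). On this stretch, bases chr9:3260247-3261149 of the minus strand matched 865 bases of the 18S gene Rn18s-rs5 with 76.7% identity, and the sites matched from chr9:3257336-3261137. Thus 8 sites matched its 18S part and 75 matched sequence past its end, up to 2911 nt away, where 28S would follow in a ribosomal unit. A search of the stretch with an annotated 5.8S gene gave no match. A 28S sequence was not used here, so what that part is was not settled. The 2 of the 83 sites that lay on the stretch itself matched it exactly.

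The matches past the 18S part were uneven. Within 1000 nt past it 9 sites started, from 1000 to 1500 nt 14, from 1500 to 2000 nt 36 and from 2000 to 3000 nt 16. The base covered by most sites, 17, lay 1825 nt past the end. In all, 72 of the 89 sites had the strand of the rRNA, as set by the 18S match (80.9%, 71.5 to 87.7) and 17 the other strand. All 9 sites within 1000 nt and all 14 of the next range had the rRNA strand, but 29 of 36 did from 1500 to 2000 nt and 9 of 16 beyond. The share on the rRNA strand was 18 of 21 in introns, 15 of 21 opposite a gene and 39 of 47 outside genes.

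**Figure D5:**
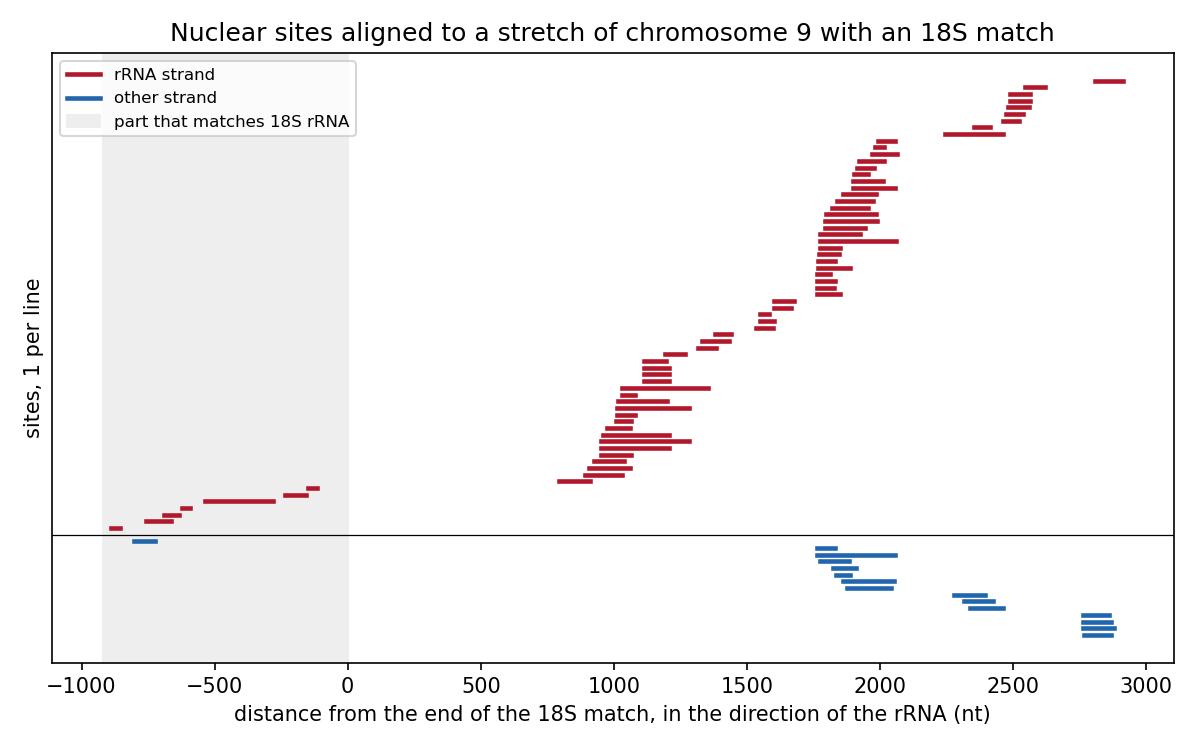
Position of 83 rRNA-like sites on the stretch of chromosome 9 with an 18S match, 1 line per site, against the distance in nt from the end of its 18S match in the direction of the rRNA. Sites on the rRNA strand are red and sites on the other strand blue, and the grey band is the part that matches 18S rRNA. Only 8 sites lie in the band, and the densest place, with 17 sites, is 1825 nt past its end.

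Sites facing each other, that is, overlapping a site on the other strand by at least 1 base, were counted next. This was the case for 33 of the 314 sites (10.5%, 7.58 to 14.4). The share was 8 of 134 in introns (5.97%, 3.06 to 11.3), 10 of 51 opposite a gene (19.6%, 11.0 to 32.5) and 15 of 129 outside genes (11.6%, 7.17 to 18.3). Among the other sites, 9 of 48 mitochondrial sites (18.8%, 10.2 to 31.9), 3 of 94 small RNA gene sites, 2 of 34 exon sites and 18 of the 50 left-out sites (36%, 24.1 to 49.9) faced another.

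Most facing sites were rRNA-like. Of the 33 facing sites, 30 were rRNA-like or linked to them, 2 were satellite-like, and the last was a 37-nt site near Gm37350 that faced an rRNA-like site of 312 nt. Of the 25 rRNA-like sites among them, 22 matched only the unidentified part of the chromosome 9 stretch and 3 the annotated locus or the 18S part. Hence 1 of the 199 sites outside the rRNA-like, linked and satellite-like groups faced another. None of the 42 AC-rich sites did, which allows a share of up to 7.14%, and none of the 29 CU-rich sites, which allows up to 10.3%. The facing sites made 21 pairs, of which 16 joined 2 of the 314 sites, and the overlaps were 1 to 190 nt with a median of 77 nt.

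The longest overlap, 190 nt, was near AC115119.1 on chromosome 18, where a site of 190 nt lay wholly opposite a site of 284 nt. In Gphn an intron site of 227 nt faced one of 119 nt over the whole of the latter (chr12:78350946-78351064). At Zc3h7a an intron site of 118 nt faced a site of 175 nt in a small RNA gene over its whole length. Near Gm2651 the 442-nt site faced sites of 107 and 94 nt over their whole lengths, and at Il31ra sites of 163 and 130 nt overlapped by 106 nt. Both sites of each of these pairs were rRNA-like.

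For the sites outside genes, the distance to genes was measured. Their median distance to the nearest gene was 12891 nt (8466 to 17756), with a range of 40 to 338561 nt. Of the 129, 3 (2.33%, 0.794 to 6.61) lay within 1000 nt past the end of a gene of their strand, and 14 (10.9%, 6.58 to 17.4) within 5000 nt. The share of all sequence outside genes within these distances was not computed, so whether these counts are low or high is unknown. Of the 51 sites opposite a gene, 45 faced introns only and 6 an exon. How much of all sequence opposite genes faces introns was not computed, so this split is given as a count only.

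Sites were finally compared with annotated non-coding RNAs, with 90% or more identity required along 90% or more of a site. Of the 314 sites, 15 matched (4.78%, 2.92 to 7.73). Among these, 13 matched the ribosomal locus, a 53-nt site opposite Pecam1, the gene of an endothelial adhesion protein, was identical to part of the U3 small nucleolar RNA gene Rnu3b1, and a 43-nt site opposite Fam227b matched the misc_RNA gene Gm22567 with 92.9% identity. No site lay in a nuclear tRNA gene of RefSeq. When 80% identity along 50% of a site sufficed, 75 sites matched, of which 54 had a miRNA gene model as the best match. These included 31 AC-rich sites and 8 rRNA-like sites, 7 of which matched Mir6240 and 1 Mir6236. Repeats were not masked in the search, and whether these matches rested on repeated sequence alone was not examined.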

How the data were processed

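PAR-CLIP was analysed for 1 experimental library, and the control sample was not analysed here. According to the study's methods, PCR duplicates were detected by random bases in the adapters and removed. The authors trimmed reads with cutadapt 1.10 and aligned them with Bowtie 1.12 (versions per the submitters' processing notes). The reference was mm10 masked for nuclear copies of mitochondrial DNA, with 1 place kept per read. Sites were identified with BMix on each strand. The score column deposited by the authors was 0 in every line, so sites were described by position, strand, width and sequence.

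Classes came from GENCODE vM21, by any overlap, with introns before opposite strands. Words of 25 nt were counted exactly in the placed chromosomes and the mitochondrial genome of mm10, without unplaced sequence. The blastn 2.17.0 matches had an e-value of at most 1e-06. Groups were assigned in the order rRNA-like, linked, satellite-like, AC-rich, CU-rich. Intervals are Wilson intervals for shares and order-statistic intervals for medians, and a count of 0 was given the limit of 3 counts. Word counts, classes and window counts were tested on simulated data, with 0 of 6405, 0 of 8 and 0 of 20 values differing. Python 3.11.15, NumPy 2.4.6, pandas 2.3.3, pysam 0.24.0 and samtools 1.23.1 were used.

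The sites and gene lists were chosen with earlier results of these data known. Named were the 5 widest sites per class, the 5 with the highest U share and those tied with the last, the 5 facing pairs with the longest overlap, genes with at least 2 intron sites, families, and sites resembling non-coding RNAs. The single-copy examples and the sequences printed were chosen after their values were seen.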

Additional observations from a re-analysis of the deposited data

How the results depend on the processing

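Of 43 alternatives, 33 stayed within the interval of the reported value or within 1.5 times the reported count, and 10 moved. The share of mostly soft-masked sites (36.6%) became 58% when any soft-masked base counted and 20.1% when all bases had to be soft-masked. The median U share (25.5%) became 26.8% when bases were pooled and 27.5% without multi-copy sites. The multi-copy share (45.9%) became 59.6% with 20-nt words, 27.7% with 36-nt words, 71.7% when any repeated word sufficed and 11.8% when all words had to repeat. Intron sites near an exon edge rose from 1.49% to 11.9% at 500 nt, which the wider distance itself brings. Matches to non-coding RNAs rose from 15 to 75 with the looser match. The median width of 75 nt and the number of facing sites (29 to 39) stayed close to the reported values under the alternatives tried. The total of 314 sites became 307 to 317 under other rules for placing a site. It fell to 248 when sites narrower than 75 nt were dropped. Introns then held 100 sites instead of 134, opposite strands 42 instead of 51, and sequence outside genes 106 instead of 129. These lower counts still lay within the limit of 1.5 times. Among alternatives chosen after the data were seen, the rRNA-like sites fell from 89 to 74 when 80% of the site had to match and to 62 at 80% identity. No paired analysis was possible because the list comes from 1 library, and for the same reason no replicate could be left out. The depth behind a site is unknown, so a region without a site may have been read too thinly.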
